A study of Triticum aestivum with 16 samples.

Results

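Transcript levels were compared among SB109, SB69, SB57 and SB3, which are 4 of the 8 recombinant inbred bread wheat lines of the series, all derived from the cross Seri M82 x Babax. Arrays whose titles name 1 of these lines were taken, 8 of the 16, with 2 field replicates for each line. Each array held RNA from the top of the stem, that is the peduncle and the internode beneath it with the leaf sheath still on. Main-tiller stems of 1 rain-fed plot were pooled, 7 to 8 per sample, at anthesis and about 2 days after heavy rain. No treatment or control line was part of the design, and no label marks any of the 4 as high or low in stem sugar. The other 4 lines were SB165, SB169, SB10 and SB62.

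Wheat stems store water-soluble carbohydrate, mostly fructan, around anthesis and later send it to the grain. Fructan exohydrolases release fructose from that store, while sucrose synthase and invertases split sucrose. The peduncle also keeps growing near anthesis, and there its dividing and elongating cells use histones, tubulins and wall enzymes, and the green sheath carries out photosynthesis.

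Each array gave 1 normalized intensity per probe set, and the log2 of these values was used for 61115 wheat probe sets. Array medians of the 8 arrays lay between 4.558 and 4.641 log2 units. The precision is limited by 2 arrays per line. As a check of the tissue, 10 of 34 photosynthesis probe sets (median level 4.52) and 2 of 6 wall and gibberellin probe sets (median 5.55) had a mean log2 level above 8, against 1 of 33 of grain proteins and 0 of 4 of anther genes, so most probe sets of the green-stem lists were not bright.

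One array stood apart from the others. SB3 replicate 2 scored 84.7 on the first principal component, which held 38.6% of the variance, whereas SB3 replicate 1 scored 12.1 and the 2 SB57 arrays scored -43.3 and -24.1. Between the 2 SB3 plots 1083 probe sets differed by more than 2-fold, 1031 of them higher in replicate 2, against 236 in SB109, 111 in SB69 and 104 in SB57. The log2 values of replicates correlated at 0.9845 in SB3 and at 0.9922 to 0.9932 in the other 3 lines. After each probe set was centred, every one of the 8 arrays still correlated best with the other array of its own line. That correlation was low in SB109 (0.155) and SB3 (0.14), against 0.422 in SB69 and 0.361 in SB57. The main counts and the named calls in SB3 are given with and without SB3 replicate 2.

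**Figure D1:**
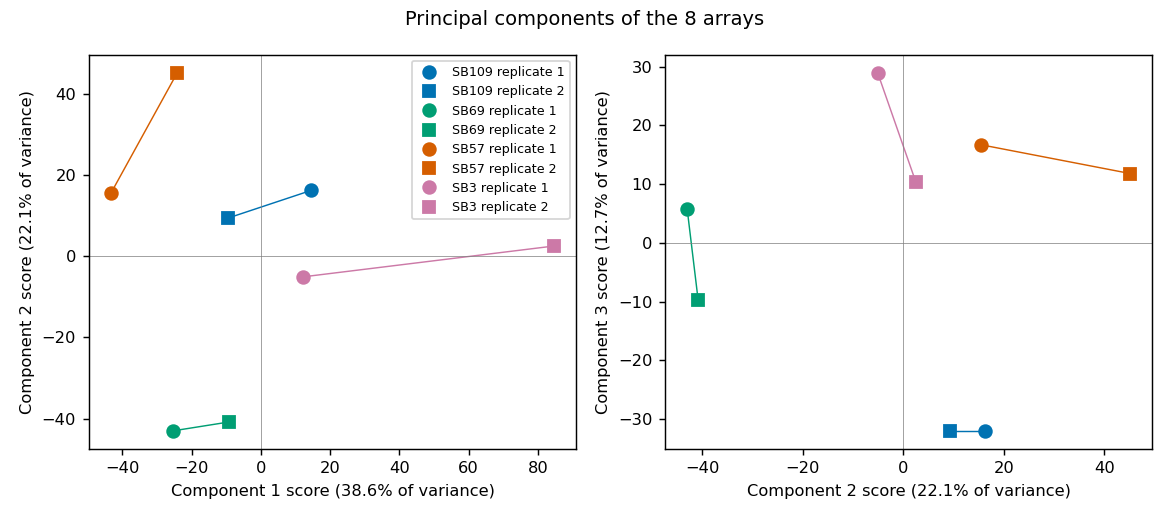
Principal component scores of the 8 arrays, with components 1 and 2 on the left and 2 and 3 on the right; colour marks the line, circles mark replicate 1 and squares replicate 2, and a line joins the replicates. SB3 replicate 2 lies at 84.7 on component 1, SB69 lies near -43 and -41 on component 2, and SB109 at -32 on component 3.

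The first question was how much of the variation between genotypes lay inside this group. The squared differences of line means were summed over all wheat probe sets, and the part that replicate spread adds to them was taken off. Of the total between the 8 lines, 41.2% lay among SB109, SB69, SB57 and SB3, 53% among the other 4 lines and 5.7% between the 2 sets. If every line differed alike, each set of 4 would hold 42.9%. Computed from replicate 1 arrays alone and from replicate 2 arrays alone, without that correction, the share among these 4 lines was 44.2% and 44.5% (SD 0.2, n = 2), beside 43.8% and 46.5% among the other 4. Both values still hold replicate spread, so this SD does not give the precision of the 41.2%. Without SB3 replicate 1 the share among these 4 lines was 51.9%, and without SB3 replicate 2 it was 40.4%, against 43.2% with all arrays on the same uncorrected scale. The difference between the shares of the 2 sets was not tested.

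Which line carried the variation depended on the plot. With both replicates, SB57 held 31.2% of the variation among the 4 lines, SB69 29.3%, SB3 28.8% and SB109 10.7%. In replicate 1 arrays alone, uncorrected, SB109 held 28.2%, SB57 26.2%, SB69 24.5% and SB3 21.1%. In replicate 2 arrays alone SB3 held 40.5% and SB109 14.4%, with 24.7% in SB57 and 20.4% in SB69. Shares of SB57 and SB69 thus moved by a few percentage points between field replicates (SD 1 and 2.9, n = 2 each), while those of SB3 and SB109 moved by far more (SD 13.7 and 9.8, n = 2 each). Products of deviations across the 2 replicates, in which spread confined to 1 plot cancels on average, gave 32.7% in SB57, 32.4% in SB69, 31.5% in SB3 and 3.5% in SB109. SB109 was the lowest with both replicates and in replicate 2 alone, and the highest in replicate 1 alone. SB57 lay above SB69 in each replicate, while SB3 lay below both in replicate 1 and above both in replicate 2.

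**Figure D2:**
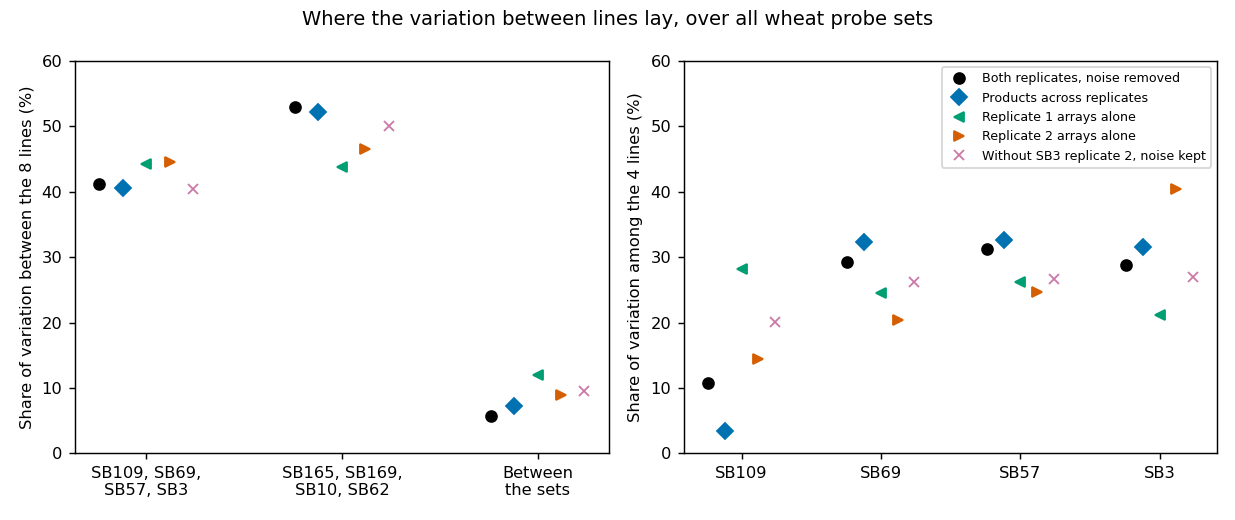
Share of the summed squared differences between line means, in percent, for each set of lines (left, of the total between 8 lines) and each of the 4 lines (right, of the total among them); marks stand for the way of computing it. SB109 runs from 3.5% to 28.2% and SB3 from 21.1% to 40.5%, while SB57 and SB69 move less.

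Among the 4 lines 1008 of 61115 probe sets (1.65%) differed by limma's moderated F-test at a Benjamini-Hochberg adjusted p under 0.05, the threshold for every call here. Line means were at least 2-fold apart in 831 of these (1.36% of all), 2 log2 units or more apart in 286 and 4 or more in 51. The median distance between the highest and the lowest line was 2.75-fold in the 1008 and 1.22-fold over all probe sets. The same test among the other 4 lines called 1776 probe sets (2.91%). Of the calls, 650 were shared, which is 64.5% of the list of these 4 lines and 36.6% of the other list. Without SB3 replicate 2 the test called 1409 probe sets (2.31%), 940 of the 1008 among them. SB3 then rested on 1 array that was assumed to vary like the other lines.

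Against the mean of the other 3 lines, SB3 had 595 calls (0.974% of all probe sets), 392 higher (0.641%) and 203 lower (0.332%). SB57 had 591 (0.967%), 270 higher (0.442%) and 321 lower (0.525%). SB69 had 461 (0.754%), 138 higher (0.226%) and 323 lower (0.529%), and SB109 had 315 (0.515%), 159 higher (0.26%) and 156 lower (0.255%). The balance leaned to higher in SB3 (65.9%) and to lower in SB69 (29.9% higher). These comparisons share arrays: a call in all 4 lines was made for 109 probe sets, and one in a single line for 770. Without SB3 replicate 2 the totals were 1006 in SB57 (1.65%), 666 in SB69 (1.09%), 578 in SB109 (0.946%) and 315 in SB3 (0.515%). Of the 595 calls of SB3, 299 remained then with the same sign, against 591 of 591 in SB57, 455 of 461 in SB69 and 315 of 315 in SB109. The balance then leaned to higher in SB109 and to lower in SB57, and it still leaned to higher in SB3 and to lower in SB69.

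Among the 6 pairs of lines, SB3 and SB57 were the pair with the most calls, 812 (1.33%), with 513 higher in SB3 (0.839%) and 299 higher in SB57 (0.489%). SB57 and SB109 had the fewest, 232 (0.38%), with 99 higher in SB57 (0.162%) and 133 higher in SB109 (0.218%). SB3 minus SB69 gave 513 (0.839%), 384 higher (0.628%) and 129 lower (0.211%), and SB3 minus SB109 gave 421 (0.689%), 251 higher (0.411%) and 170 lower (0.278%). SB57 minus SB69 gave 459 (0.751%), 291 higher (0.476%) and 168 lower (0.275%), and SB69 minus SB109 gave 369 (0.604%), 138 higher (0.226%) and 231 lower (0.378%). Without SB3 replicate 2 the largest pair was SB57 minus SB69 with 1023 calls (1.67%), and SB3 minus SB57 had 528 (0.864%).

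**Figure D3:**
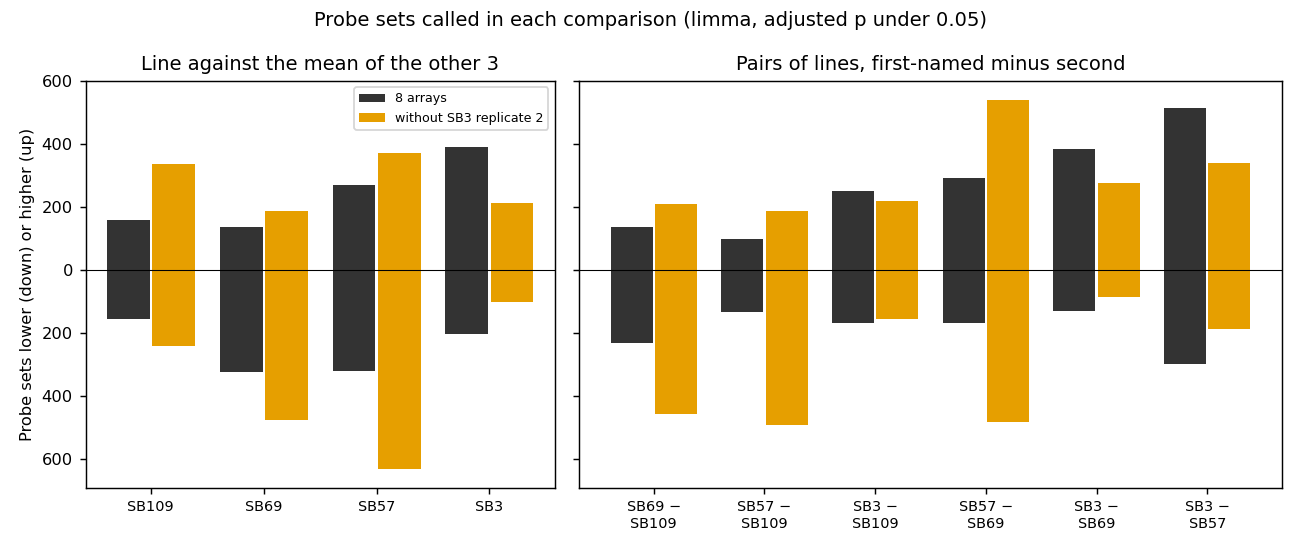
Number of probe sets called higher (above 0) or lower (below 0) for each line against the mean of the other 3 and for each pair, the first-named line minus the second; dark bars use 8 arrays and orange bars leave out SB3 replicate 2. SB3 has 392 higher with 8 arrays and 214 without that array, while SB57 has 321 lower and 633 lower.

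How well a plot was matched by its twin differed by line. Of the 353 probe sets at least 2-fold from the mean of the other 3 lines in SB3 replicate 1, 98.6% had the same sign in replicate 2. Of the 1550 chosen in SB3 replicate 2, 76.8% had the same sign in replicate 1, where their median difference was 0.28 log2 units. In SB57 the same-sign share was 98.3% and 96.3%, and in SB69 97.6% and 94.1%, whichever plot was used to choose. In SB109 it was 59.6% for the 570 chosen in replicate 1 and 82% for the 350 chosen in replicate 2. Over all probe sets the same-sign share was 60.6% in SB3, 56.4% in SB57, 68.3% in SB69 and 43.8% in SB109. The SB109 replicate 1 choices had a median of 0.31 log2 units in replicate 2, against 1.38 in replicate 1 itself.

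The order of the arrays was also counted without a model. In SB69 both arrays lay above the 6 others in 9.7% of all probe sets and below them in 6.87%, in SB57 in 5.78% and 4.73%, in SB3 in 3.42% and 6.24%, and in SB109 in 2.29% and 2.81%. Most of these gaps were small. The SB69 arrays also had the highest medians of the arrays compared, 4.641 and 4.631 log2 units. Over all probe sets the median difference from the other lines was 0.0293 in SB69 and -0.0442 in SB3. How far such small shifts in overall signal set the order was not tested. The share that random order alone would give was not worked out, so these percentages only describe the order. Both arrays lay at least 2-fold beyond every other array in 69 probe sets above and 19 below in SB3, 12 and 81 in SB57, 12 and 38 in SB69 and 12 and 10 in SB109. Separation by that distance was more often upward than downward in SB3, and more often downward in SB57 and SB69. Leaving out SB3 replicate 2 gave 86 above and 22 below in SB3, where 1 array then had to lie apart, 13 and 83 in SB57, 13 and 38 in SB69 and 34 and 11 in SB109.

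A number of probe sets had 2 clear levels. Among the 286 called probe sets whose lines spanned 2 log2 units or more, 113 (39.5%) had a single gap that took more than 80% of the range. One line stood apart in 84 of them: SB3 in 34 (26 high, 8 low), SB57 in 21 (7 high, 14 low), SB69 in 20 (5 high, 15 low) and SB109 in 9 (4 high, 5 low). With that SB3 array left out they were 26 high and 8 low in SB3, 6 and 35 in SB57, 5 and 15 in SB69 and 8 and 5 in SB109. In 29 the lines split into pairs, and 20 of these set SB109 and SB57 against SB69 and SB3. The split of SB109 and SB3 from SB69 and SB57 was seen in 7, and that of SB109 and SB69 from SB57 and SB3 in 2.

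The largest differences of single lines ran from low signal to high signal. The probe set with the largest rise had log2 intensities of 12.15 and 12.01 in SB109, against 6.12 and 5.57 in SB69, 5.83 and 6.06 in SB57 and 5.99 and 5.50 in SB3. It was 75.1-fold higher in SB109 (log2 difference 6.23, SE 0.17, limma adjusted p = 6.2e-08). The groups did not overlap, but SB165 (mean 11.80) and SB10 (mean 11.44) were as high, so the level was apart within the 4 lines and not within all 8. The identifiers of this probe set and of the next 3 head panels of the plot of probe sets by array.

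The probe set with the largest fall stood at 4.0 and 2.98 in SB69, against 10.82 and 11.17 in SB109, 10.97 and 10.68 in SB57 and 10.64 and 10.96 in SB3. It was 167-fold lower in SB69 (log2 difference -7.38, SE 0.23, limma adjusted p = 6.21e-08). The 2 SB69 values lay at the 40th and 18.2nd percentile of all values on the 8 arrays, those of the other 3 lines at the 98.7th or above. SB165 (mean 3.23) and SB62 (mean 3.47) were low as well.

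The probe set with the second largest fall had 2.67 on both SB3 arrays, against 8.32 to 8.81 on the 6 arrays of the other 3 lines, a 60.6-fold fall (limma adjusted p = 3.17e-09, with a log2 difference of -5.92 and an SE of 0.12). SB10 (mean 3.92) was low as well. The second largest rise was at a probe set paired with the gene LOC543445, which stood at 9.58 and 9.70 in SB3, against 3.91 and 3.89 in SB109, 5.61 and 4.05 in SB69 and 3.41 and 3.68 in SB57. SB3 was 46.8-fold higher (limma adjusted p = 7.04e-06, with a log2 difference of 5.55 and an SE of 0.30), and SB69 replicate 1 lay above replicate 2. SB165 (mean 9.01), SB169 (mean 8.79) and SB10 (mean 9.61) were high as well. Both calls held without SB3 replicate 2, at log2 differences of -5.92 and 5.49 (limma adjusted p = 3.58e-09 and 1.84e-05). No detection calls were used, so these folds hold for the normalized values only. Whether a sequence difference under the probes, a missing gene copy or transcript abundance sets such levels was not tested.

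The largest rise in SB57 was 29-fold, with 8.02 and 8.30 in SB57 and 2.83 to 3.70 in the other 3 lines. SB169 (mean 8.21) was as high. The largest rise in SB69 was 21.8-fold, with 12.59 and 12.49 in SB69 and 7.88 to 8.31 in the other 3 lines. SB165 (mean 12.51), SB169 (mean 12.43) and SB10 (mean 12.35) were as high. The largest fall in SB109 was part of a split into pairs, with 3.35 and 2.89 in SB109 and 3.22 and 3.28 in SB57, against 9.05 and 9.30 in SB69 and 9.13 and 9.24 in SB3. SB169 (mean 2.95) was low as well. The largest fall in SB57 was 30-fold, with 2.68 and 2.81 in SB57, against 6.42 to 9.74 in the other 3 lines. This probe set was also low in SB169 (mean 3.06) and SB62 (mean 2.42). Its call was lost without SB57 replicate 1 (limma adjusted p = 0.0859) or without SB57 replicate 2 (0.0921), and with a floor of 16 on the values (0.359).

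The platform annotation paired 1273 wheat probe sets with 1 gene each (771 genes). Of these, 38 (2.99%) differed among the 4 lines, which is above the 1.65% of all probe sets; no test was made of that gap. In SB57, 25 were lower (1.96%, against 0.525% of all probe sets) and 0 higher (against 0.442%). In SB3 19 were higher (1.49%, against 0.641%) and 7 lower (0.55%, against 0.332%). SB69 had 2 higher (0.157%, against 0.226%) and 9 lower (0.707%, against 0.529%), and SB109 had 9 higher (0.707%, against 0.26%) and 4 lower (0.314%, against 0.255%). When SB3 replicate 2 was left out, SB3 had 11 higher (0.864%, against 0.35%) and 3 lower (0.236%, against 0.165%), and SB57 had 4 higher (0.314%, against 0.61%) and 55 lower (4.32%, against 1.04%). SB69 then had 4 higher (0.314%, against 0.308%) and 17 lower (1.34%, against 0.782%), and SB109 had 27 higher (2.12%, against 0.548%) and 10 lower (0.786%, against 0.398%).

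LTP3 encodes a lipid transfer protein, a small secreted protein that binds lipids and is part of plant surface and defence biology. One of its probe sets stood at 5.36 and 6.22 in SB57, against 9.32 and 9.58 in SB109, 8.97 and 9.40 in SB69 and 9.44 and 9.67 in SB3. Both SB57 arrays lay below every other array. The level was 12.1-fold lower in SB57 (log2 difference -3.60, SE 0.21, limma adjusted p = 1.61e-05), and the call held in all alternatives tried. A second LTP3 probe set lay at 12.13 to 12.51 on the 8 arrays and did not pass (limma adjusted p = 0.822), so the fall belongs to 1 of the 2 probe sets.

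The small heat shock protein hsp16.9A, a chaperone that holds unfolding proteins, split the lines into pairs. Its log2 intensity was 6.18 and 6.27 in SB109 and 6.56 and 4.62 in SB3, against 2.78 and 2.43 in SB69 and 2.47 and 2.26 in SB57. The F-test passed (limma adjusted p = 0.000871, and 6.89e-08 without SB3 replicate 2), and the 4 arrays of SB109 and SB3 all lay above the 4 of SB69 and SB57. The SB3 plots differed from each other by more than those of the other lines. Against the mean of the other 3 lines SB109 was 6.52-fold higher (limma adjusted p = 0.0068), a call lost in 3 of 16 alternatives. FKBP70, a peptidyl-prolyl isomerase with chaperone activity, ranged from 9.32 to 10.20 and did not pass (limma adjusted p = 0.384).

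In the defence and lipid transfer list, drawn up after the values had been seen, 4 of 9 probe sets passed the F-test, against 1.65% of all probe sets. They belong to 3 genes, LTP3, PR5 and XIP-I, the last with 2 probe sets that may read the same transcript. XIP-I, an inhibitor of fungal xylanases, stood at 7.66 and 7.52 in SB3, at 7.19 and 7.43 in SB109, at 6.80 and 6.71 in SB69 and at 6.41 and 6.37 in SB57 at 1 probe set. The F-test passed (limma adjusted p = 0.00385), with SB57 1.77-fold lower and SB3 1.71-fold higher than the mean of the other 3 lines. Neither line was called apart from the line nearest to it. SB3 minus SB109 was 0.28 log2 units (limma adjusted p = 0.782), and SB57 minus SB69 was -0.36 (0.339). The second XIP-I probe set had its lowest arrays in SB57 (5.36 and 5.23) and its highest in SB3 (6.65 and 6.81), with SB109 at 6.17 and 6.22 and SB69 at 5.37 and 5.87 (limma adjusted p = 0.00528). Both probe sets gave the same order of lines. Both passed the F-test without SB3 replicate 2 (0.00317 and 0.00969), while the rise in SB3 passed at the first (limma adjusted p = 0.0353) and not at the second (0.0608). The fall in SB57 at the first was lost without SB57 replicate 1 (0.107) or replicate 2 (0.159).

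PR5, a thaumatin-like pathogenesis-related protein, had 9.34 and 9.13 in SB69, against 10.14 and 9.73 in SB109, 9.93 and 10.12 in SB57 and 10.72 and 10.36 in SB3. It was 1.91-fold lower in SB69 (log2 difference -0.93, SE 0.15, limma adjusted p = 0.0138) and 1.76-fold higher in SB3 (adjusted p = 0.0233, and 0.0155 without SB3 replicate 2). The fall in SB69 lost its call with all 16 arrays in the fit (limma adjusted p = 0.0811), without either SB69 array (0.105 and 0.261) and without SB57 replicate 2 (0.0623). These PR5 folds are against the mean of the other 3 lines. As a pair, SB3 and SB69 were called apart (limma adjusted p = 0.00457). SB3 was not called apart from SB109 (0.318) or SB57 (0.262), nor was SB69 (0.183 and 0.0872). The other defence probe sets, of PER1, WGA2 and GLU1A, did not pass. Across the list 4 probe sets were higher in SB3 (0.641% of all probe sets), 3 lower in SB57 (0.525%), 1 lower in SB69 (0.529%) and 1 higher in SB109 (0.26%). Median differences were 0.38, -0.10, 0.05 and 0.00 log2 units in those lines, against medians from -0.04 to 0.03 over all probe sets. Both XIP-I probe sets, of 1 gene, are among the rises in SB3. The rise in SB109 and 1 of the rises in SB3 are the LTP3 probe set that was low in SB57. There SB3 and SB109 differed by only 0.10 log2 units (limma adjusted p = 0.971), and SB3 and SB69 by 0.37 (0.5). On 7 arrays, with SB3 replicate 2 left out, 3 were higher in SB3, 3 lower in SB57, 1 lower and 1 higher in SB69 and 1 higher in SB109.

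The methyl cycle gene SAHH encodes S-adenosylhomocysteine hydrolase, which clears the by-product of methylation. Both SAHH probe sets were lower in SB57. The first had 12.71 and 12.82 in SB57, against 13.20 to 13.56 on the other 6 arrays (1.52-fold lower, limma adjusted p = 0.0279), and the second had 12.10 and 12.24, against 12.72 to 13.19 (1.68-fold lower, adjusted p = 0.0297). Neither passed the F-test (limma adjusted p = 0.077 and 0.0871), and both calls were lost when arrays were centred on their medians (0.0573 and 0.0596), with no intensity trend (0.0655 and 0.0585) and with a floor of 16 (0.43 and 0.381). They were also lost without SB57 replicate 1 (0.331 and 0.336), SB57 replicate 2 (0.302 and 0.304), SB109 replicate 1 (0.0658 and 0.0665) or SB69 replicate 2 (0.109 and 0.0964), and the first also without SB69 replicate 1 (0.0616).

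TUBA, an alpha tubulin of the microtubules, was 1.67-fold lower in SB57 at 1 of its 2 probe sets, with 7.95 and 7.81 in SB57 and 8.43 to 8.88 in the other 3 lines (limma adjusted p = 0.0452). This call was lost in 11 of 17 alternatives. Among all 12 tubulin and profilin probe sets 0 passed the F-test, against 1.65% of all probe sets. Their median difference in SB57 was -0.36 log2 units. Of the 12, 4 had an unadjusted p under 0.05, against 7828 of all 61115 probe sets.

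**Figure D4:**
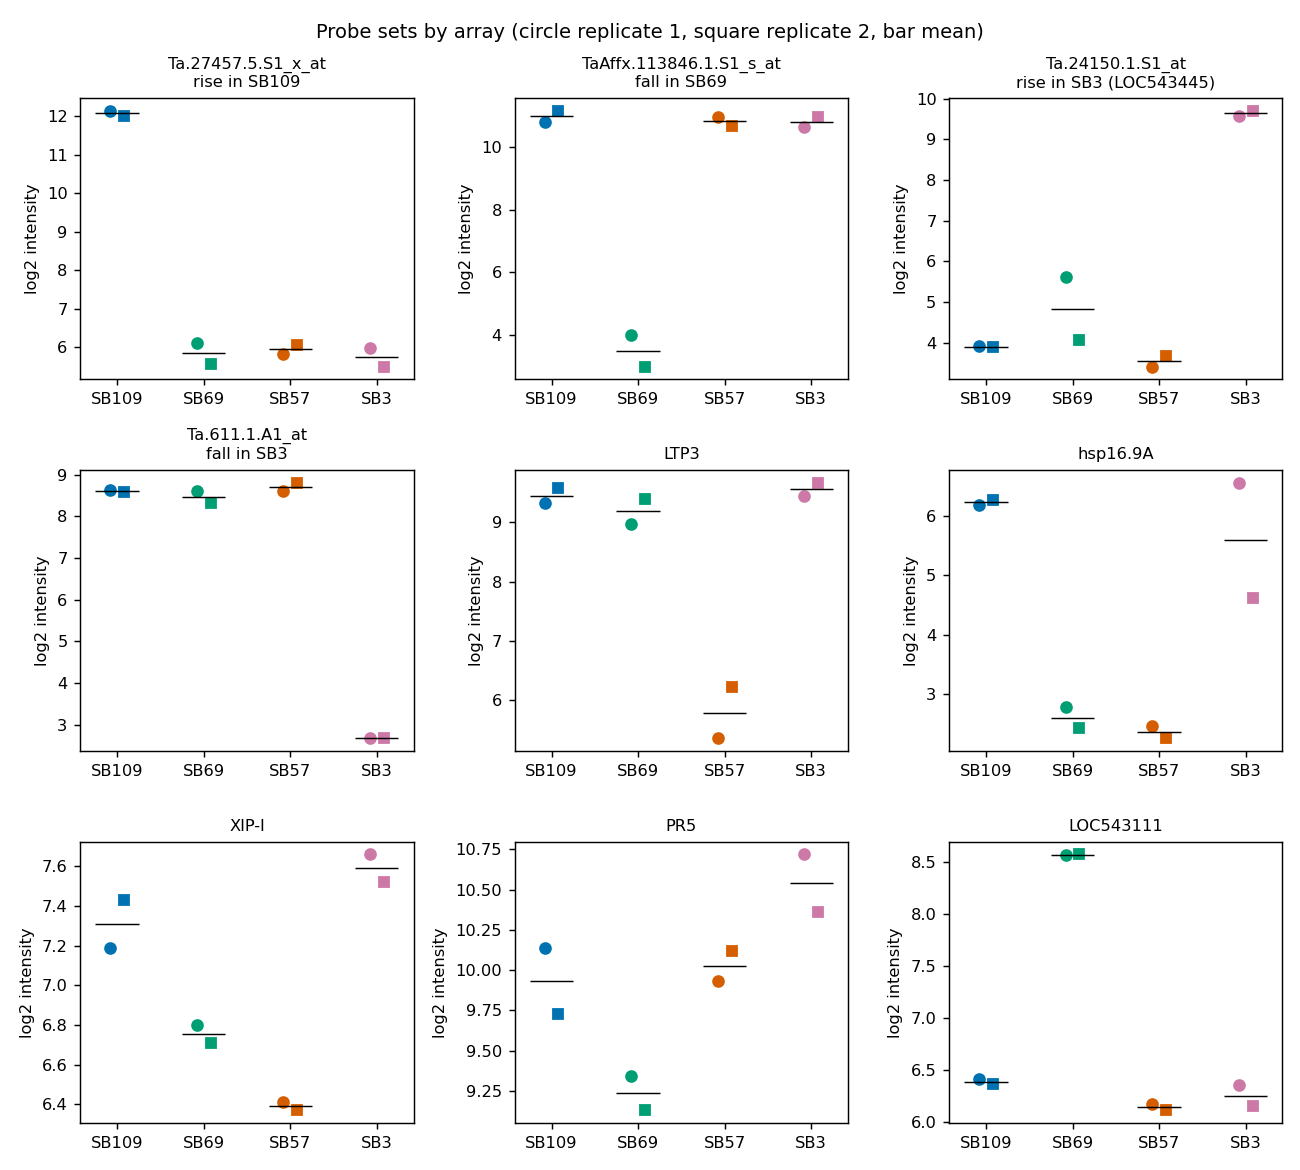
Log2 intensity on the 8 arrays, by line, of 4 probe sets headed by their identifiers (the 2 rises and 2 falls of greatest size) and of 5 genes at the probe set with the lowest F-test p; circles mark replicate 1, squares replicate 2 and bars the mean of the 2. LTP3 has 5.36 and 6.22 in SB57 and 8.97 or more elsewhere, hsp16.9A and XIP-I are high in SB109 and SB3, PR5 is lowest in SB69, and LOC543111 is highest in SB69.

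Genes known here by a locus symbol alone gave further line differences. LOC543111 was higher in SB69 at both of its probe sets, with 8.58 and 8.62 in SB69 and 5.80 to 6.33 in the other 3 lines at 1 of them (5.61-fold, limma adjusted p = 7.47e-06). LOC780602 stood at 7.46 and 7.69 in SB3 and at 4.71 to 5.63 elsewhere (5.07-fold higher, limma adjusted p = 2.04e-05). LOC543313 ran from 7.77 and 8.09 in SB57 through 8.35 and 9.22 in SB69 and 9.65 and 9.89 in SB109 to 10.37 and 11.05 in SB3. It was both 3.54-fold lower in SB57 and 3.68-fold higher in SB3 than the mean of the other 3 lines. Lines next to each other in this order were not called apart at either end. SB3 minus SB109 was 0.94 log2 units (limma adjusted p = 0.329), and SB57 minus SB69 was -0.85 (0.235). The same pattern of low SB57 and high SB3 was seen for LOC543147, at 3.60 and 3.61 in SB57 and 5.77 and 6.57 in SB3. The rises in SB3 held without SB3 replicate 2 for LOC780602 (limma adjusted p = 0.000111) and LOC543313 (0.0112) and not for LOC543147 (0.0668). The fall of LOC543147 in SB57 was lost without SB57 replicate 1 (0.0854) or replicate 2 (0.102).

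In SB109, LOC542911 was 2.09-fold lower, with 7.77 and 7.50 in SB109 and 8.45 to 8.86 in the other 3 lines (limma adjusted p = 0.0017, and 0.0602 without SB109 replicate 2). LOC543416 and LOC542846 were also called lower in SB109, 5.34-fold and 4.5-fold, but the replicates of SB57 lay far apart for both, at 7.61 and 5.4 and at 6.73 and 5.10. The LOC543416 call was lost in 8 of 17 alternatives, among them quantile normalization (limma adjusted p = 0.0607), array median centring (0.0536), removal of dim probe sets (0.0671) and omission of either SB109 array (0.311 and 0.425) or SB69 replicate 1 (0.108). The LOC542846 call was lost in 7 of 17, among them the fit of all 16 arrays (0.15), removal of dim probe sets (0.0583) and omission of either SB109 array (0.295 and 0.383) or SB69 replicate 1 (0.088). LOC780636 was 1.83-fold higher in SB109, with 7.06 and 6.70, and lowest in SB3, with 5.68 and 5.74; the rise was lost without SB109 replicate 1 (limma adjusted p = 0.342), SB109 replicate 2 (0.0514) or SB69 replicate 1 (0.0555). LOC543287 was 3.78-fold lower in SB3, with 4.53 and 3.79, against 5.01 to 7.15 in the other 3 lines, and the call was lost without SB3 replicate 2 (limma adjusted p = 0.0857). Of the probe sets whose gene has a name beyond a locus symbol, 5 of 200 (2.5%, against 1.65% of all probe sets) passed the F-test. An unadjusted p under 0.05 was found for 39 of the 200, against 7828 of all 61115 probe sets. With the control probe sets, the largest rises and falls and the annotated genes chosen for their differences, 36 of 259 named probe sets passed.

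Histones, the proteins that package DNA and are made mostly while it is copied, marked the SB3 plot that stood apart. Of 20 histone and chromatin probe sets, 15 were more than 2-fold higher in SB3 replicate 2 than in SB3 replicate 1, against 1.69% of all probe sets. One H2A-9 probe set had 4.75 and 9.51 in SB3, 7.27 and 7.35 in SB109, 4.59 and 5.60 in SB69 and 4.29 and 4.31 in SB57. The median level of the list was 4.82 and 7.78 in SB3, 5.88 and 5.70 in SB109, 4.63 and 4.85 in SB69 and 4.42 and 4.38 in SB57. SB3 replicate 2 was thus highest, both SB109 plots came next, and SB3 replicate 1 lay near SB69 and SB57. In bulk stem tissue more dividing cells and more histone RNA per cell cannot be told apart.

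With all 8 arrays 0 of the 20 passed limma's F-test, against 1.65% of all probe sets. Of the 20, 8 had an unadjusted p under 0.05, against 7828 of all 61115 probe sets. The median difference was 1.21 log2 units in SB3, 0.41 in SB109, -0.55 in SB69 and -1.03 in SB57. Without SB3 replicate 2, 12 of 20 passed, against 2.31% of all probe sets. In SB109 10 were higher (0.548% of all), among them 1 probe set of H2A-9, 6.61-fold (limma adjusted p = 2.11e-06), and 1 of wcH2B-8, 3.63-fold (0.000463). In SB57 8 were lower (1.04% of all). Without SB3 replicate 1 instead, 16 of 20 passed the F-test, 18 were higher in SB3 and 2 in SB109, 14 were lower in SB57 and 12 in SB69, and the median difference was 2.48 log2 units in SB3 and 0 in SB109. In each of the 6 fits without an array of another line, 0 of 20 passed. The calls thus depended on which SB3 plot was kept. Many of these probe sets end in _x_at and may read several copies of the histone genes. The list was drawn up after the data had been seen, so its counts are a description.

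**Figure D5:**
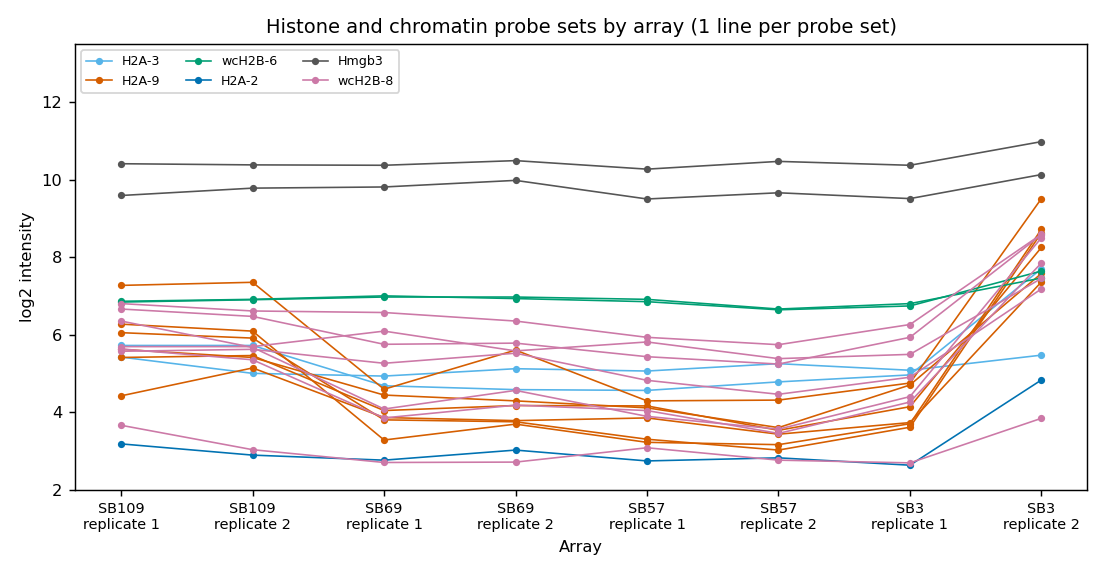
Log2 intensity of 20 histone and chromatin probe sets on the 8 arrays; each line joins 1 probe set, coloured by gene. Most H2A and H2B probe sets are highest in SB3 replicate 2, and many of them are also higher in both SB109 plots than in SB69, SB57 and SB3 replicate 1.

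Other named probe sets that were higher in SB3 replicate 2 by more than 2-fold were those of PEAMT1, a methyltransferase on the way to choline (7.52 and 8.90 in SB3), 2 of the beta tubulin Tubb5, BMY1, a beta-amylase that releases maltose from starch, and GLU1A. BMY1 was uneven in SB109 too, at 5.23 and 8.52, with 4.60 and 6.11 in SB3, 5.13 and 5.94 in SB69 and 5.38 and 4.78 in SB57. It did not pass (limma adjusted p = 0.578).

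No carbohydrate gene of the lists passed the F-test among the 4 lines, which 1.65% of all probe sets passed. The fructan exohydrolase 1-FEH, which trims fructan, lay at 10.84 and 10.75 in SB109, 10.95 and 10.96 in SB69, 10.79 and 10.87 in SB57 and 11.10 and 10.92 in SB3 (limma adjusted p = 0.66). Its 4 means spanned 0.22 log2 units. The 3 probe sets of 6-FEH, a second exohydrolase, had means that spanned 0.73, 0.79 and 0.41 log2 units, and did not pass, nor did IVR1, an invertase. At the probe set with the widest span the SB109 plots stood at 5.05 and 6.39. The median span of the list was 0.41 log2 units, against 0.29 over all probe sets. Of the 5 probe sets of this list 0 had an unadjusted p under 0.05, against 7828 of all 61115. Sucrose synthase at the middle of its transcript had 9.72 and 9.87 in SB57, against 10.18 and 10.12 in SB109, 10.07 and 10.20 in SB69 and 10.27 and 10.06 in SB3. Both SB57 arrays lay below the other 6, as in 4.73% of all probe sets, and the F-test did not pass (limma adjusted p = 0.396). The same order was seen at the 3' probe set of sucrose synthase, with 10.71 and 10.98 in SB57 (limma adjusted p = 0.455). It was not seen at the 5' probe set, with 6.54 and 6.57 in SB57 and 6.67 and 6.43 in SB69 (0.591). Fructan-synthesising enzymes were not named in the annotation used here.

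Among starch genes AGP-S and GBSS-I, which take part in starch synthesis, 0 passed. A p that misses the threshold with 2 arrays per line does not show that levels were alike. Calvin cycle and glycolysis genes (Pgk-1, PRK, FBP, PFK and GAPN) had a median range of 0.22 log2 units over 6 probe sets, and photosynthesis genes, among them PsbO and PsbP of photosystem II, 0.19 over 34, with 0 passing in each. Of the wall and gibberellin genes COMT1, a methyltransferase of lignin synthesis, had 12.23 and 12.51 in SB57, against 12.66 to 13.06 in the other 3 lines (limma adjusted p = 0.302). Translation, dehydration, metal handling, grain protein and anther lists had 0 passing of 10, 10, 5, 33 and 4 probe sets. Their median ranges were 0.29, 0.33, 0.20, 0.27 and 0.23 log2 units, against 0.29 over all probe sets. Of all probe sets 1.65% passed. At that share lists this small hold few calls, so 0 passing does not mark the genes of this paragraph as steady.

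Of the 25 control probe sets that carry wheat gene names (actin, elongation factor, glyceraldehyde-3-phosphate dehydrogenase, ribosomal RNA, CYP86-TA, glucose-6-phosphate dehydrogenase, sucrose synthase and ubiquitin) 0 passed limma's F-test. Among them 1 (an actin one, 1.42-fold) had an unadjusted p under 0.05, against 7828 of all 61115 wheat probe sets, of which 1.65% passed.

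The called probe sets were not spread evenly over the array. In 4 groups of nearly equal size by mean level, 0.268%, 1.26%, 2.3% and 2.77% were called from the dimmest to the brightest. Calls reached 2.62% of the probe sets ending in _a_at, 2.52% of those in _s_at and 2.47% of those in _x_at, suffixes that mark probes shared by several transcripts, against 1.42% of all others. The 1008 calls came from 862 sequence clusters by their identifiers, and 113 clusters held 2 or more. Of the 366 clusters with a call and at least 1 further probe set, 113 had a second call.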

How the data were processed

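For every array the authors deposited 1 normalized intensity per probe set. GCOS and RMA stand in the submitters' processing notes, and no source used here gives the step that put the values on a linear scale, which was inferred from them. RMA evens out differences in overall signal between arrays and compresses differences of dim probe sets. The log2 of each value was taken with a floor of 1. The replicates are separate plots per the labels.

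A mean per line was fitted to the 8 arrays with limma 3.58.1 in R 4.3.3, with eBayes and an intensity trend (4 residual and 6.94 prior degrees of freedom). P-values were adjusted by Benjamini-Hochberg over 61115 wheat probe sets, with a threshold of 0.05. The fit was tested on simulated data. Shares of variation used all 16 arrays. Probe sets were named through the platform's older annotation, updated by gene identifier to RefSeq symbols of IWGSC CS RefSeq v2.1 (1272 of 1273 matched).

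Named items were the 25 control probe sets with gene names, the largest rise and fall of each line (4 by identifier), up to 6 annotated rises and falls per line whose 2 arrays lie beyond every other array, and the gene lists. These 4 lines, the rule and the lists were chosen with earlier results of these data known, and the lists were drawn from annotation names after the values had been seen; BMY1, PEAMT1, Tubb5 and COMT1 were picked from them for their values. Figures were drawn in Python 3.11.15 with matplotlib 3.10.9. Probe-level values and probe sequences were not used here. The counts by line of 2-level, separated, annotated and defence probe sets without SB3 replicate 2 were added after seeing the data.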

Additional observations from a re-analysis of the deposited data

Results flagged for a closer look

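One reporter probe set was bright on all 8 arrays, although reporters took no part in any comparison: its log2 intensity averaged 13.87 and ran from 13.65 to 14.04. The reporter next in brightness averaged 5.92. The bright one was noted because it lies outside the data that were compared.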

How the results depend on the processing

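Kept within 1.5 times of the values given were the counts of differing probe sets under quantile normalization, array median centring, no intensity trend and removal of the suffixes _x_at, _s_at and _a_at. With all 16 arrays in the fit, SB69 had 778 calls and SB3 minus SB69 786. Array weights gave 767 in SB69 and 588 for SB69 minus SB109, and removing dim probe sets gave 141 for SB57 minus SB109; the cause was not tested. A floor of 16 put all 8 arrays of 20748 probe sets at 1 value and lowered the prior degrees of freedom to 0.8, against 6.94. It left 268 differing probe sets (149 at least 2-fold), line counts of 94 (SB109), 207 (SB69), 122 (SB57) and 189 (SB3), 160 for SB69 minus SB109, 45 for SB57 minus SB109, 102 for SB3 minus SB109, 175 for SB57 minus SB69, 161 for SB3 minus SB69 and 157 for SB3 minus SB57, 49 probe sets with 2 levels and 10 named ones, against 36. Under it hsp16.9A, both XIP-I and SAHH probe sets, PR5, TUBA, the largest fall in SB57 and LOC543416, LOC542846, LOC542911, LOC543147, LOC543313, LOC780636 and LOC543287 lost their calls. At an adjusted p under 0.01 there were 519 differing probe sets (509 at least 2-fold), line counts of 149 (SB109), 188 (SB69), 258 (SB57) and 317 (SB3), 200, 126 and 252 for SB69, SB57 and SB3 minus SB109, 221 and 243 for SB57 and SB3 minus SB69, 385 for SB3 minus SB57, and 339 shared with the other 4 lines. A gap over 60% gave 241 probe sets with 2 levels and a range of at least 1 log2 unit gave 244, against 113.

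Left out 1 by 1, the arrays put the count of differing probe sets between 583 and 3549 (without SB3 replicate 1) and the 2-fold count between 557 and 2528. SB109 had 121 to 578 calls, SB69 113 to 1410, SB57 124 to 2300 and SB3 315 to 3431. Pairs ran from 173 to 664 (SB69 minus SB109), 90 to 678 (SB57 minus SB109), 221 to 1857 (SB3 minus SB109), 144 to 1023 (SB57 minus SB69), 209 to 3244 (SB3 minus SB69) and 305 to 3626 (SB3 minus SB57). Lows came without an array of the line or pair itself and highs without an SB3 array; a line left with 1 array was assumed to vary like the others. Probe sets with 2 levels ran from 85 to 166 and named ones from 25 to 67. Without the replicate correction, the share among the 4 lines ran from 38.8% to 51.9%, against 43.2% with all arrays on that scale. The share of SB109 ran from 10.6% to 20.7% (15.2% with all arrays) and that of SB69 from 20% to 29.4% (25%). In SB57 it ran from 23% to 32.2% (27.4%) and in SB3 from 27% to 46.4% (32.3%).

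The share among the 4 lines was 43.2% with no replicate correction, 40.6% from products of replicates, 40.7% after quantile normalization, 39.7% without dim probe sets, 40.4% with the floor of 16 and 42.9% without the 3 suffixes named above. SB69 held 25%, 32.4% and 25.6% with no correction, with products and without dim probe sets, and SB57 27.4%, 32.7% and 33.2%, with 32.3% after quantile normalization. Without the suffixed probe sets SB57 held 27.4%, below SB69 (32%) and SB3 (29.5%). With the replicate block 1022 probe sets differed and no count moved by over 1.5 times; TUBA lost its call (limma adjusted p = 0.0573). Deviations of same-numbered arrays correlated over 0.1 in 3 of 6 pairs of lines (-0.224 to 0.258), so the numbers were not taken as pairing the plots.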
